A study of Mus musculus with 5 samples.

Results

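The first assembled megabase of each mouse autosome, which lies beside the centromere, was examined in Foxa1 chromatin immunoprecipitation sequencing (ChIP-Seq) data from adult liver. It was divided into 10 kb bins from 3 to 4 Mb in mm8 coordinates on chromosomes 1 to 19, which gave 1900 of the 240533 autosomal bins, or 0.790% of them. The rule for the members uses position and no measured value, although it was set with earlier results of these data known. Chromatin came from 100 mg of snap-frozen liver of wild-type CD1 outbred male mice aged 2 to 3 months and was precipitated with an antiserum to Foxa1. There were 5 libraries of this 1 condition, described as biological replicates, made from fragments of about 200 bp with 18 PCR cycles. The libraries carried no genetic change or treatment, whole liver was used without sorting of cells, and input and Foxa2 libraries were not analysed here.

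Mouse chromosomes carry the centromere at one end, so that the short arm is little more than repeated satellite sequence. Assemblies of the mouse genome open each chromosome with a block of unknown bases that stands for this DNA, and the sequence that follows often holds duplicated segments, gene family copies and remnants of satellite repeats. Foxa1 is a winged-helix transcription factor that can bind its sites in compact chromatin and acts together with its paralog Foxa2 in liver development. Only reads with a unique best position in the genome were kept in the files, so a stretch that is present in identical copies holds no reads by construction.

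In the files, the first read of an autosome lay between 3 and 3.08 Mb, as the choice of 3 Mb as the first base assumed. The 5 libraries held 3023778, 4146819, 4316856, 4600497 and 1428894 distinct autosomal reads in replicates 1 to 5, counting each strand and 5′ end once per replicate. Distinct reads were 85%, 86.1%, 93.1%, 57.6% and 21.1% of all reads, so that replicate 5 was the shallowest and the richest in copies. The file headers of replicates 3 and 4 name the same animal, and it is not known whether both came from 1 mouse. P-values of the tests over replicates therefore measure the spread between these 5 libraries, which may be technical in part. The p-values of called regions came from reads pooled over the libraries and hold no such spread.

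To ask whether the first megabase held more reads than sequence farther along the chromosome, its 1900 bins were compared with the 1900 bins from 20 to 21 Mb of the same chromosomes. The first megabase held 26341, 37229, 37960, 38270 and 12105 distinct reads in replicates 1 to 5. The bins from 20 to 21 Mb held 21137, 27227, 28498, 32020 and 10066. In each of the 5 libraries the first megabase was the fuller, by 1.25-fold, 1.37-fold, 1.33-fold, 1.20-fold and 1.20-fold. It held 0.871%, 0.898%, 0.879%, 0.832% and 0.847% of the distinct autosomal reads, in 0.790% of the autosomal bins. The mean log2 ratio of distinct reads was 0.34 ± 0.09 (SD, n = 5; exact sign-flip permutation test over replicates, two-sided, p = 0.0625, 0.0833 after Benjamini-Hochberg adjustment over 8 comparisons). With 5 libraries 0.0625 is the smallest p this test can give, so no comparison of this kind could pass 0.05. Against the bins from 10 to 11 Mb and from 40 to 41 Mb the log2 ratio was smaller, at 0.18 ± 0.06 and 0.20 ± 0.08 (SD, n = 5), and above 0 in 5 of 5 libraries. The comparison with 20 to 21 Mb rests on a few chromosomes, and the other comparison bins were not tried without them. Without chromosomes 5, 9 and 11 the log2 ratio was 0.04 ± 0.08 (SD, n = 5), and without chromosomes 7, 8 and 12, whose windows from 20 to 21 Mb were low, with log2 ratios of -4.91, -2.07 and -2.34 to the library's median 1 Mb window, it was 0.21 ± 0.09 (SD, n = 5).

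All reads numbered 48066, 63927, 58248, 80715 and 61624 in the first megabase of replicates 1 to 5. From 20 to 21 Mb there were 24416, 31003, 30037, 55144 and 47350. The ratios of 1.97-fold, 2.06-fold, 1.94-fold, 1.46-fold and 1.30-fold were all above 1, and they were smallest in replicates 4 and 5, the libraries with the lowest share of distinct reads over all autosomes. The mean log2 ratio of all reads was 0.78 ± 0.30 (SD, n = 5; exact sign-flip permutation test, two-sided, p = 0.0625, adjusted p = 0.0833). Without chromosomes 5, 9 and 11 it was 0.090 ± 0.10 (SD, n = 5), above 0 in 4 of 5 libraries. Distinct reads made up 54.8%, 58.2%, 65.2%, 47.4% and 19.6% of the reads in the first megabase. The shares from 20 to 21 Mb were 86.6%, 87.8%, 94.9%, 58.1% and 21.3%. The share was lower in the first megabase in 5 of 5 libraries, by 20.7 percentage points on average, with an SD of 13.7 (exact sign-flip permutation test, two-sided, p = 0.0625, adjusted p = 0.0833). Without chromosomes 5, 9 and 11 the mean difference was -2.98 percentage points.

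The typical bin did not share in this excess. The median bin of the first megabase held 11, 15, 15, 16 and 4 distinct reads in replicates 1 to 5, and the median bin from 20 to 21 Mb held 12, 15, 16, 18 and 5. The first megabase was lower in 4 libraries and equal in replicate 2. With 0.5 reads added, the mean log2 ratio of the medians was -0.13 ± 0.11 (SD, n = 5; exact sign-flip permutation test, two-sided, p = 0.125, adjusted p = 0.143). Against 10 to 11 Mb it was -0.22 ± 0.05 and against 40 to 41 Mb -0.21 ± 0.08 (SD, n = 5). The median over all autosomal bins with a read was 13, 17, 18, 19 and 6. Of the 1900 member bins, 675 lay above the library median on average over the replicates, against 776 of 1900 bins from 20 to 21 Mb.

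A few bins held much of the reads of the first megabase. The fullest 1% of its bins, 19 in number, took 25.5%, 26.4%, 25.5%, 22.0% and 24.2% of its distinct reads in replicates 1 to 5. The fullest 1% from 20 to 21 Mb took 2.36%, 2.53%, 2.60%, 2.30% and 3.56%. The share was thus between 22.0% and 26.4% in every library on one side and below 4% on the other, without overlap, with a mean difference of 22.0 ± 1.79 percentage points (SD, n = 5; exact sign-flip permutation test, two-sided, p = 0.0625, adjusted p = 0.0833). The pooled counts of the 1900 bins had a variance of 651 times their mean, against 15.3 times from 20 to 21 Mb, 7.21 times from 10 to 11 Mb and 8.37 times from 40 to 41 Mb.

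Each chromosome was then set against the library's median 1 Mb window in 1 limma fit over all 2393 autosomal windows, at a false discovery rate of 5%. Of the 19 first megabases, 3 were higher, 6 were lower and 10 did not pass, where 1.80% of all windows were higher and 10% were lower. The 3 that were higher lay on chromosomes 5, 9 and 11. The 10 that did not pass had mean log2 ratios from -0.20 to 0.06. The comparison windows from 20 to 21 Mb held 0 that were higher and 5 that were lower, on chromosomes 4, 7, 8, 12 and 17.

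**Figure D1:**
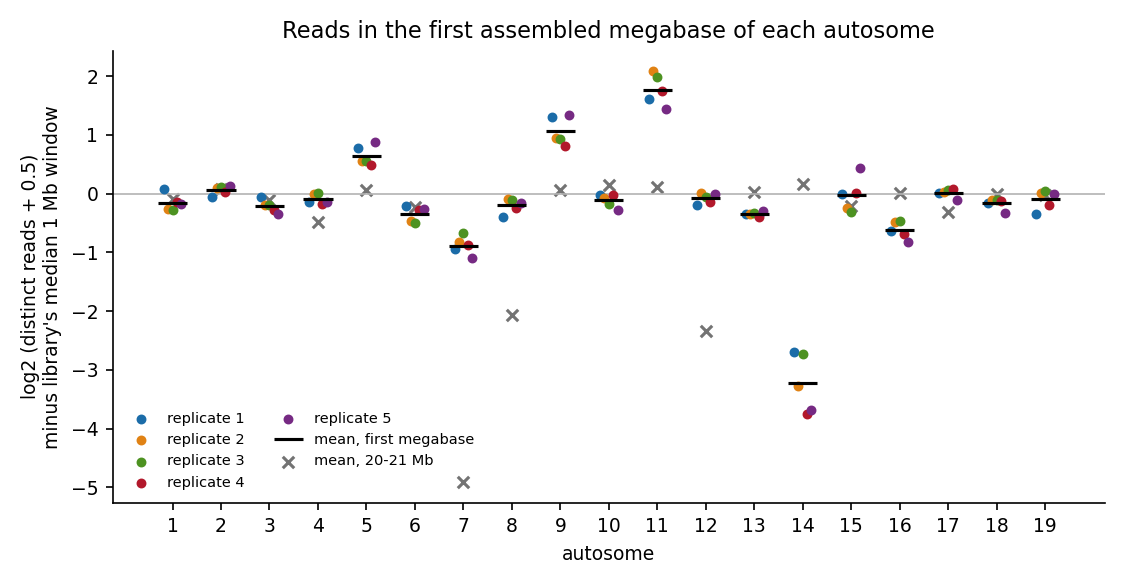
Log2 of distinct reads in the first assembled megabase of each autosome (x axis) minus that of the library's median 1 Mb window (y axis), for 5 replicates (points) with their mean (bar), and the mean of the window from 20 to 21 Mb (cross). Chromosomes 5, 9 and 11 lie above 0 in all 5 libraries and chromosome 14 lies lowest, at a mean of -3.23, while the crosses of chromosomes 7, 8 and 12 fall far below their first megabase.

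Chromosome 11 held the most distinct reads, with 3956, 7491, 7230, 6569 and 1613 distinct reads in replicates 1 to 5 and a log2 ratio of 1.77 ± 0.09 (SE, n = 5; limma, adjusted p = 1.83e-06). Chromosome 9 held 3200, 3429, 3508, 3427 and 1506, a log2 ratio of 1.07 ± 0.08 (SE, n = 5; limma, adjusted p = 3.97e-05). Chromosome 5 held 2199, 2604, 2684, 2730 and 1099, a log2 ratio of 0.65 ± 0.07 (SE, n = 5; limma, adjusted p = 0.000234). With copies kept, chromosome 9 held more than chromosome 11 in 5 of 5 libraries, with 15395, 17364, 14795, 15189 and 10113 reads against 4834, 9039, 7968, 11507 and 7557. All 5 libraries were above the library median in distinct reads on each of the 3 chromosomes. In distinct reads replicate 5 was the highest of the libraries on chromosomes 5 and 9 (log2 ratios of 0.88 and 1.33) and the lowest on chromosome 11 (1.43).

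At the other end, chromosome 14 held 198, 183, 276, 146 and 46 distinct reads in its first megabase, a log2 ratio of -3.23 ± 0.16 (SE, n = 5; limma, adjusted p = 1.36e-06). Each library was low, and replicates 4 and 5 were the lowest. Its window from 20 to 21 Mb had a log2 ratio of 0.17 (limma, adjusted p = 0.0675). In a table of the later assembly GRCm38.p6, used here for names and order and for no coordinate, its first protein-coding genes from 3 Mb on are Gm2888, Gm2897 and Gm10340, a series of predicted genes. Chromosome 7 had 668, 1002, 1146, 1062 and 281 distinct reads (log2 ratio of -0.88 ± 0.06, SE, n = 5; limma, adjusted p = 1.83e-05). Chromosome 16 had 827, 1272, 1327, 1211 and 337 (log2 ratio of -0.62 ± 0.06, SE, n = 5; limma, adjusted p = 0.000199). Chromosomes 13, 6 and 3 were lower by less, with log2 ratios of -0.34, -0.34 and -0.21 and limma adjusted p of 0.000837, 0.00508 and 0.0395. The call on chromosome 3 did not hold at an FDR of 1%, with all reads (limma, adjusted p = 0.0540), relative to the library mean (0.0568) or without any 1 of replicates 2 to 5 (limma, adjusted p of 0.0972 to 0.166). With all reads chromosome 12 was called higher as well (log2 ratio of 0.50; limma, adjusted p = 0.00273), and without replicate 1 chromosome 1 was called lower (log2 ratio of -0.21; limma, adjusted p = 0.0275).

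Leaving out 1 chromosome at a time, the log2 ratio of distinct reads to those from 20 to 21 Mb stayed above 0 in 5 of 5 libraries. It ranged from 0.17 without chromosome 11 to 0.44 without chromosome 14. For all reads the lowest value was 0.48, without chromosome 9. Between chromosomes, 10 of the 19 first megabases had a lower mean than their own window from 20 to 21 Mb and 9 had a higher one, and the median over chromosomes was -0.11 against -0.03.

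In the fit of the 10 kb bins, 1853 member bins held a read in some replicate and could be tested against the library median. Of these 31 were higher (1.67%) and 462 were lower (24.9%), and 1360 did not pass (limma, false discovery rate of 5% over 237300 bins). Over all autosomal bins, 0.287% were higher and 8.22% were lower. From 20 to 21 Mb the fit called 6 bins higher and 292 of 1767 lower (16.5%). From 10 to 11 Mb it called 3 higher and 220 of 1891 lower, and from 40 to 41 Mb 4 higher and 228 of 1883 lower. Higher bins were found on 12 chromosomes and lower bins on all 19. Without chromosome 14, which gave 76 lower bins of 81 tested, 386 of 1772 member bins were lower (21.8%).

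Over the first 40 steps of 1 Mb, up to 43 Mb, the first step had the largest share of higher bins and lower bins. It also had the largest share of bins with a called region of read excess. The share of lower bins was 24.9% in the first step, 12.5% in the second, and 4.58% to 19.3% over the 39 later steps. The share of higher bins was 1.67% in the first step and 0.054% to 1.37% later. Of the 31 higher bins 15 lay on chromosomes 5, 9 and 11. Without these chromosomes in any step, the first step had 1.03% higher bins and 3.81% with a region, and 1 later step was above it in each, at 1.56% and 3.94%. The share of lower bins was then 26.5%, against 4.46% to 22.1% later. These are counts over different bins of the same libraries, and the steps were not tested against each other.

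**Figure D2:**
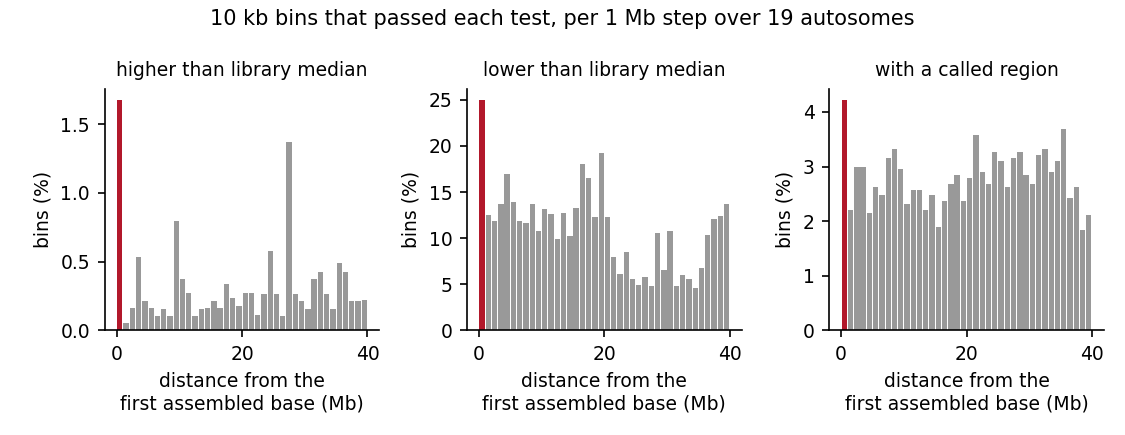
Percent of 10 kb bins over 19 autosomes (y axis, from 0) in steps of 1 Mb from the first assembled base (x axis). Bins counted were higher or lower than the library median or held a called region of read excess. The first megabase (red) has 1.67% higher, 24.9% lower and 4.21% with a region, each the largest of the 40 steps, but without chromosomes 5, 9 and 11 only the share of lower bins is.

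Within the megabase, bins nearest the first base departed most from the library median, in both directions. In the first 100 kb, 20 of 171 tested bins were higher (11.7%) and 106 were lower (62.0%), against 1 and 29 of 190 in the last 100 kb. The 20 higher bins included the first bin of chromosome 5, the first 4 bins of chromosome 9 and 8 adjacent bins of chromosome 11. The mean bin of the first 100 kb held 3.07 times the library median, and 0.669 ± 0.113 times (SD, n = 5) without these chromosomes. The median bin of the first 100 kb held 0.335 ± 0.065 times the library median (SD, n = 5), the next 100 kb 0.650 ± 0.091 times, and each step from 300 kb on between 0.87 and 0.94 times. The first 100 kb held 7638, 11226, 11154, 9724 and 3242 distinct reads in replicates 1 to 5, and the last 100 kb held 2228, 3172, 3152, 3252 and 967. All 5 libraries had more reads in the first 100 kb, with a mean log2 ratio of 1.75 ± 0.10 (SD, n = 5; exact sign-flip permutation test, two-sided, p = 0.0625, adjusted p = 0.0833). Without chromosomes 5, 9 and 11 the direction turned, and the log2 ratio was -0.45 ± 0.18 (SD, n = 5). The very first 10 kb bin was higher on 6 chromosomes, lower on 9, did not pass on 1 and held no read on 3.

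The 20 fullest member bins held 303 to 5161 distinct reads pooled over the replicates, where the median autosomal bin held 76 and the fullest bin from 20 to 21 Mb held 197. The next member bin outside the 20 held 291. Together they took 24.8% of the distinct reads and 43.1% of all reads of the first megabase. They lay on 8 chromosomes, and 19 of them lay within 100 kb of the first base. Among the 20 fullest of all autosomal bins 14 were members, 13 of them on chromosomes 5, 9 and 11, and among the fullest 100 there were 22.

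The fullest member bin was the first of chromosome 5, chr5:3000001-3010000, which held 1115, 1193, 1209, 1081 and 563 distinct reads in replicates 1 to 5. Its bin count ranked 2 among all autosomal bins, and its log2 ratio to the library median was 6.14 ± 0.18 (SE, n = 5; limma, adjusted p = 4.38e-07). All reads there numbered 5922, 7496, 6725, 6111 and 3945. Although replicate 5 was the shallowest library, its distinct reads were 93.8 times the library median, above the 56.9 to 85.8 times of the other replicates. Over the 5 libraries this fold fell as the number of distinct autosomal reads rose. Replicates 1 to 4 held 1081 to 1209 distinct reads in the bin, against 3023778 to 4600497 over the autosomes. The part of repeated positions in this was not tested. With all reads the order turned, and replicate 5 was the lowest, at a log2 ratio of 7.25 against 7.53 to 8.72. The reads lay at 1750 positions and strands, of which 73.9% were found in at least 2 replicates and 356 in all 5. Next to it the profile fell, and the following 7 bins were lower than the library median, with a mean log2 ratio of -2.23. The other 99 bins of the megabase had a log2 ratio of -0.22 ± 0.05 (SD, n = 5).

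Chromosome 9 opened with 40 kb of the same kind. Its first 4 bins, chr9:3000001-3040000, held 2158, 2229, 2223, 1933 and 1079 distinct reads and 14196, 16007, 13445, 12706 and 8122 reads in all. This 40 kb took 6.33% of the distinct reads and 20.6% of all reads of the 19 first megabases. In distinct reads every library had at least 25.4 times its median bin there, and the mean log2 ratio of 5.10 corresponds to 34.4-fold. Replicate 5 was the highest in distinct reads, at a log2 ratio of 5.49, and the lowest in all reads, at 6.29. Here too the fold in distinct reads fell as the number of distinct autosomal reads rose. Of 3419 positions, 70.8% were found in at least 2 replicates and 677 in all 5. Reads per distinct read were 6.58, 7.18, 6.05, 6.57 and 7.53 in replicates 1 to 5, although the same libraries differed from 1.05 to 4.70 from 20 to 21 Mb. The positions were clustered, since 37.2% of the 100 bp steps of the 40 kb held a read. The remaining 96 bins of the chromosome 9 megabase had a log2 ratio of -0.37 ± 0.09 (SD, n = 5).

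Chromosome 11 had a stretch of another kind. Its bins from chr11:3020001-3100000 formed the longest run of higher bins, 8 in a row, and held 2622, 5210, 4993, 4512 and 979 distinct reads. The folds over the library median bin were 25.2, 38.3, 34.7, 29.7 and 20.4, so here replicate 5 was the lowest. Reads per distinct read were 1.17, 1.17, 1.07, 1.73 and 4.69, close to the 1.16, 1.14, 1.05, 1.72 and 4.70 of the bins from 20 to 21 Mb. Reads spread over 17115 positions and 91.4% of the 100 bp steps. Of these positions 6.78% were found in at least 2 replicates and 0 in all 5. Beyond 100 kb, the other 90 bins of this megabase had a log2 ratio of 0.09 ± 0.20 (SD, n = 5). In the GRCm38.p6 table the first protein-coding gene of chromosome 11 from 3 Mb on is Sfi1, which encodes a centrosomal protein.

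**Figure D3:**
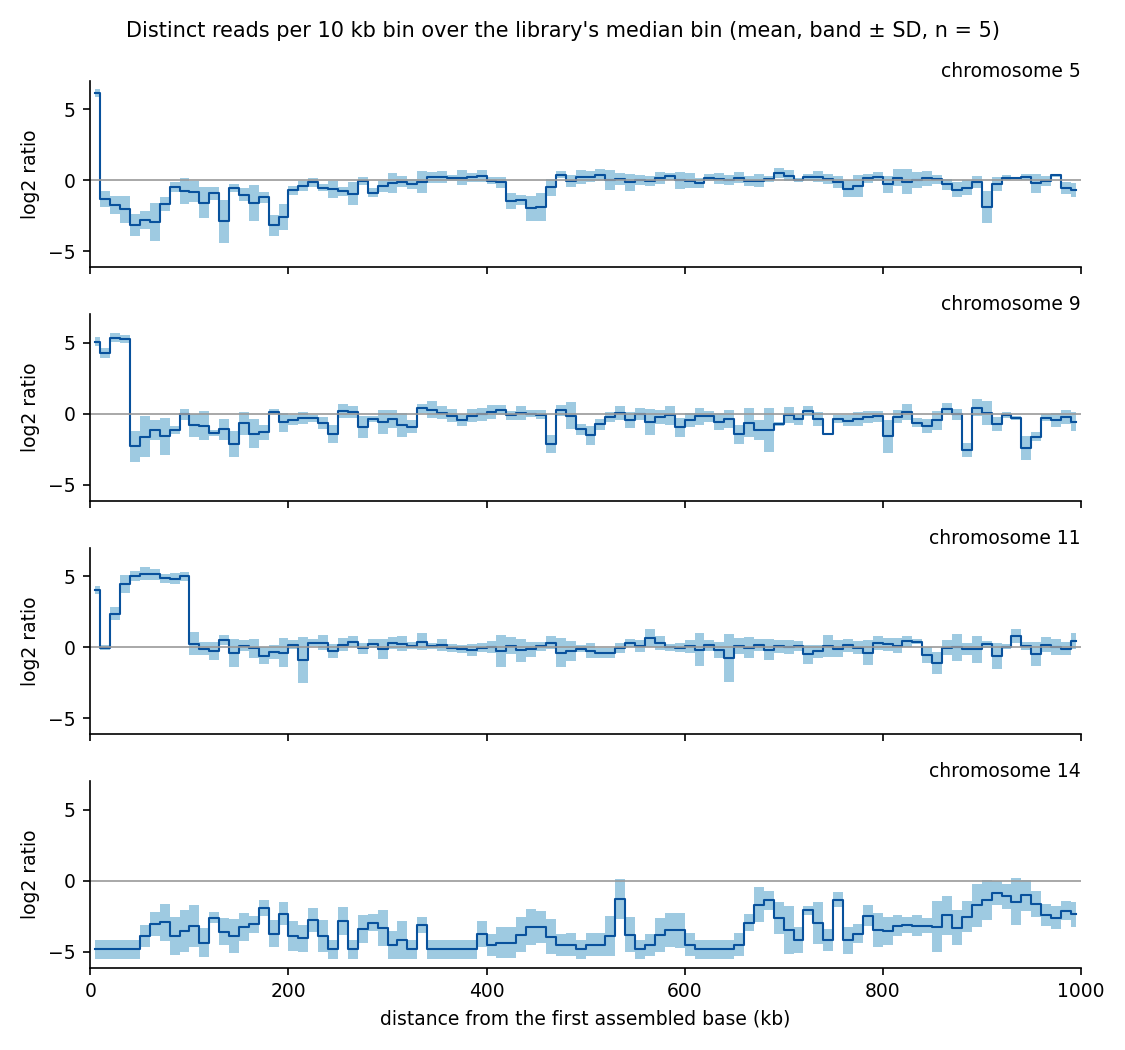
Log2 ratio of distinct reads in each 10 kb bin to the library's median bin (y axis; mean over 5 replicates, band ± SD, 0.5 reads added) against the distance from the first assembled base (x axis, kb) on chromosomes 5, 9, 11 and 14. The excess covers the first 10 kb of chromosome 5, the first 40 kb of chromosome 9 and most of the first 100 kb of chromosome 11, while chromosome 14 stays below 0 in its 1 Mb, where bins without a read sit at the floor set by the added reads.

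The 20 fullest bins differed widely in copies and shared positions. On chromosomes 5 and 9 the 5 fullest bins had 62.7% to 79.9% of their positions in at least 2 replicates and 5.59 to 7.79 reads per distinct read over the pooled libraries. The bin chr12:3110001-3120000 had the most copies, with 18.3 reads per distinct read: 1050, 1283, 1221, 1211 and 941 reads fell on 73, 77, 71, 55 and 36 distinct ones in replicates 1 to 5. On chromosome 11 the 8 bins of the run had 5.85% to 7.58% of positions in at least 2 replicates and 1.39 to 1.49 reads per distinct read. Other bins lay between. The first bin of chromosome 11, chr11:3000001-3010000, had 30.5% of positions in at least 2 replicates and 2.17 reads per distinct read. The bin chr18:3000001-3010000 held 121, 190, 228, 165 and 54 distinct reads, with 15.9% of positions shared, and chr4:3010001-3020000 held 257, 362, 388, 241 and 80, with 24.2% shared.

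**Figure D4:**
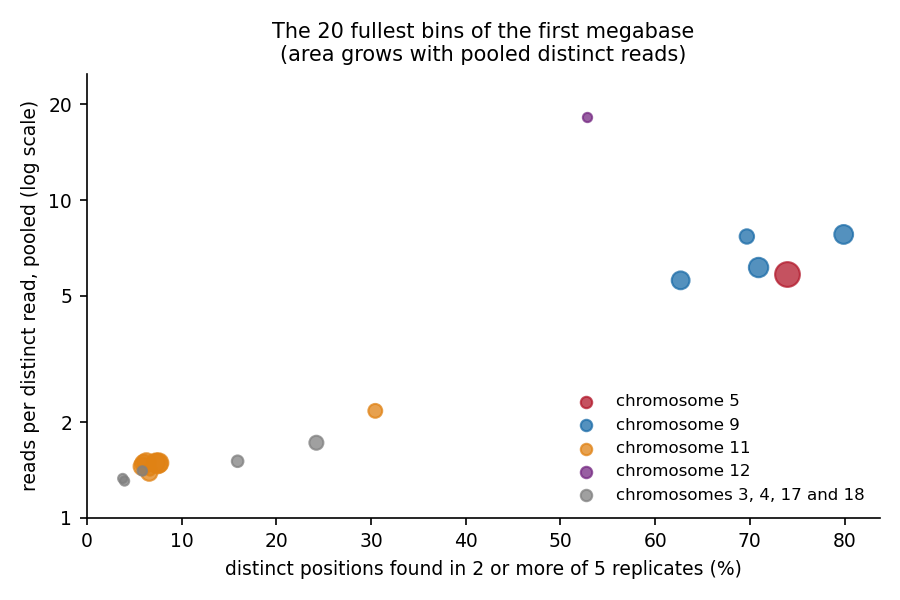
Reads per distinct read over the 5 pooled replicates (y axis, log scale) against the percent of positions found in at least 2 replicates (x axis) for the 20 fullest bins of the first megabase, with the area of a point growing with its pooled distinct reads. Bins of chromosomes 5 and 9 lie at 62.7% to 79.9% and above 5 reads per distinct read, the chromosome 12 bin lies highest at 18.3, and 8 of the 9 chromosome 11 bins lie below 8% and 1.5 reads per distinct read.

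Over the whole first megabase, 5940 of 139570 read positions (4.26%) were found in at least 2 replicates and 1083 in all 5. From 20 to 21 Mb the number was 272 of 118676 (0.229%), from 10 to 11 Mb 329 of 133100 (0.247%) and from 40 to 41 Mb 329 of 131447 (0.250%), and 0 positions were found in all 5 replicates in any of the 3. The 40 kb of chromosome 9 and the first 10 kb of chromosome 5 held 1033 of the 1083 positions. A share of this kind grows with the number of reads per base, and no adjustment for read density was made.

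Runs of at least 3 adjacent lower bins numbered 44 in the first megabase, with 300 bins on 15 chromosomes. By the same rule there were 21 from 20 to 21 Mb with 167 bins, 7 from 10 to 11 Mb with 72 bins and 12 from 40 to 41 Mb with 102 bins. The longest runs in those 3 sets, of 29, 30 and 41 bins, were longer than the longest in the first megabase, of 25 bins, and no difference in runs was tested. A bin without a read in any library was not tested and so ended a run, in every set. The number and length of runs therefore depend on where such bins lie, on chromosome 14 as well. Chromosome 14 had 7 of the 44 runs with 72 bins, among them the 2 longest, of 25 bins at chr14:3650001-3900000 and 19 bins at chr14:3050001-3240000. The first of these held 67, 70, 84, 59 and 11 distinct reads over 250 kb, a mean log2 ratio of -2.98. The run at chr13:3000001-3140000 held 62, 101, 104, 75 and 22 distinct reads over 140 kb, and that at chr7:3000001-3140000 held 54, 64, 68, 79 and 26. Both began at the first base, and each library was low in both. On chromosome 4, 13 lower bins at chr4:3020001-3150000 (46, 53, 49, 50 and 13 distinct reads, mean log2 ratio of -2.31) directly followed the full bin named above. Of the 44 runs, 16 began within 100 kb of the first base.

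The number of bins without a read in any library was below that of some comparison bins and above that of others. The first megabase had 47 such bins, on 5 chromosomes, where 20 to 21 Mb had 133, 10 to 11 Mb had 9 and 40 to 41 Mb had 17. Of the 39 later steps of 1 Mb, 10 had at least as many. Chromosome 14 held 19 of the 47, chromosome 7 held 10, chromosome 16 held 9, chromosome 19 held 8 and chromosome 8 held 1. The longest empty stretches were the first 8 bins of chromosome 19 (chr19:3000001-3080000), the first 5 bins of chromosome 14, 5 bins of chromosome 16 from chr16:3020001-3070000 and 4 bins of chromosome 7 from chr7:3140001-3180000. Per library, 5.37%, 4.16%, 4.58%, 4.63% and 12.5% of member bins held no distinct read in replicates 1 to 5. The shares from 20 to 21 Mb were 10.4%, 10.1%, 9.74%, 10.3% and 14.2%, higher in 5 of 5 libraries, with a mean difference of -4.68 ± 1.75 percentage points (SD, n = 5; exact sign-flip permutation test, two-sided, p = 0.0625, adjusted p = 0.0833). The direction turned with the comparison bins, to 4.37 percentage points against 10 to 11 Mb and 3.32 against 40 to 41 Mb, each above 0 in 5 of 5 libraries. Against 20 to 21 Mb without chromosomes 7, 8, 12 and 14 it was 0.787 ± 2.03 percentage points (SD, n = 5), above 0 in 2 of 5 libraries.

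Reads around a bound site pile up on the plus strand on its left and on the minus strand on its right, so pairs of opposite read ends a short distance apart exceed those far apart. The number of pairs at 55 to 150 bp over those at 1000 to 2000 bp, per base of distance, was 2.05, 1.81, 1.78, 2.10 and 2.79 in the first megabase of replicates 1 to 5. From 20 to 21 Mb it was 1.51, 2.03, 1.53, 3.89 and 10.1. The largest of these were in replicates 5 and 4, the libraries with the lowest share of distinct reads. The ratio is therefore not by itself a measure of binding, and the part of copies in it was not tested. Replicates 1 and 3 were higher in the first megabase and replicates 2, 4 and 5 were lower, with a mean log2 ratio of -0.45 ± 0.93 (SD, n = 5; exact sign-flip permutation test, two-sided, p = 0.438, adjusted p = 0.438). Without bins over 5 times the library median, 15 to 20 per library in the first megabase and 0 from 20 to 21 Mb, the ratios in the first megabase were 1.67, 2.31, 1.79, 4.10 and 10.6. They were then above those from 20 to 21 Mb in 5 of 5 libraries, with a mean log2 ratio of 0.14 ± 0.07 (SD, n = 5; exact sign-flip permutation test, two-sided, p = 0.0625). With all bins kept, the mean log2 ratio was -0.51 against 10 to 11 Mb and -0.63 against 40 to 41 Mb. The fullest bins were not left out in those comparisons, so the change of direction holds for 20 to 21 Mb only.

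Regions of read excess were called on the pooled distinct reads, with no input library, in windows of 200 bp. Each window was tested against the larger of the genome mean of 1.40 reads and the local mean (one-sided Poisson test, false discovery rate of 5%). That test takes no account of the spread between libraries. Of 7589 regions in the genome, 132 had their peak in the first megabase and 58 had it from 20 to 21 Mb. A region peak lay in 80 member bins (4.21%), against 2.91% of all autosomal bins and 51 bins (2.68%) from 20 to 21 Mb. A region above its flanks in all 5 replicates lay in 51 member bins (2.68%), where the share over all bins was 1.12%. Of the 86 such regions of the first megabase, 43 lay in the first 100 kb of chromosomes 5, 9 and 11. Chromosome 11 had 32 of the 132 regions, chromosome 9 had 24, chromosome 15 had 14 and chromosome 14 had 0. The first 100 kb of chromosomes 5, 9 and 11 held 54 of them, which left 78 on 17 chromosomes. The 54 had a median fold over the background of 2.23. For the other 78 it was 6.41, and for the 58 regions from 20 to 21 Mb it was 6.41 as well.

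The strand offset of a region, the mean position of its minus-strand ends less that of its plus-strand ends within 250 bp of the peak, had a median of 36 bp in the first megabase and 83.1 bp from 20 to 21 Mb. The read length was 36 nt. In the first 100 kb of chromosomes 5, 9 and 11 the median was 30.3 bp, and in the other 78 regions it was 54.0 bp. More than 5% of positions were shared between replicates in 76 of the 132 regions, against 10 of 58 from 20 to 21 Mb. Of the 76, 48 lay in the first 100 kb of chromosomes 5, 9 and 11, which left 28 of the other 78 regions. The median peak window held 26.5 reads in the first megabase and 10 from 20 to 21 Mb, and no adjustment for read number was made. The 76 regions had a median offset of 30.8 bp, and the 56 others a median of 71.4 bp, nearer to the 89.5 bp of the 48 regions from 20 to 21 Mb under the same limit. These medians describe the regions and were not tested.

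**Figure D5:**
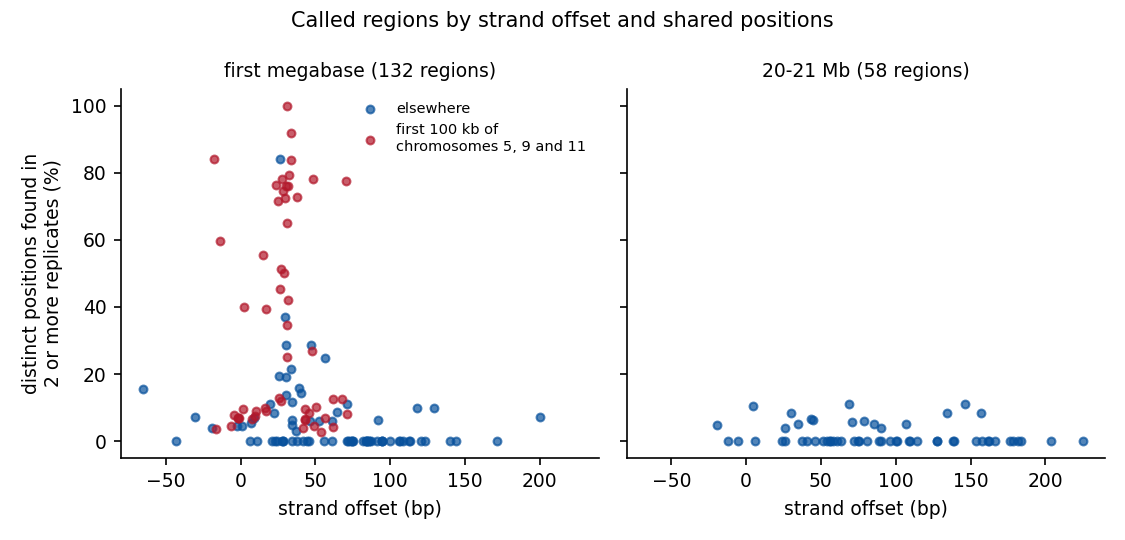
Percent of read positions found in at least 2 replicates (y axis) against the strand offset (x axis, bp) for the 132 called regions of the first megabase (left) and the 58 from 20 to 21 Mb (right), with regions of the first 100 kb of chromosomes 5, 9 and 11 in red. Regions with over 20% of positions shared lie between -17.8 and 70.3 bp and occur only in the left panel, and regions with 0% shared spread to larger offsets in both.

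Of the regions above their flanks in all 5 replicates, the 10 with the smallest p lay on chromosomes 12, 9, 5 and 4, with 7 on chromosome 9. They had 37.1% to 100% of positions in at least 2 replicates and offsets from -17.8 to 37.6 bp. The first of the list, chr12:3109751-3110350, held 63, 63, 65, 49 and 36 distinct reads in replicates 1 to 5, with 188 reads in its peak window and a 134-fold excess over the background. Its reads lay on 20.6 copies per distinct read, 84.1% of positions were shared, and its offset was 26.6 bp. The region with the most reads in its peak window, 650, was chr5:2999951-3002550, which held 1101, 1169, 1192, 1069 and 554 distinct reads over 2600 bp. Its start lies before the first base because minus-strand reads were moved 100 bp to the left.

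Chromosome 15 gave the most regions outside chromosomes 9 and 11. Its 14 regions lay between chr15:3181151 and 3558400, and 9 of them were above their flanks in all 5 replicates. Their offsets ranged from 11 to 140 bp with a median of 83.1 bp, and the median share of positions in at least 2 replicates was 0%. The one with the smallest p, chr15:3220751-3221150, held 7, 4, 2, 8 and 8 distinct reads in replicates 1 to 5, with a 12.9-fold excess and an offset of 84.8 bp. The next by p, chr15:3440851-3441200, held 3, 4, 0, 7 and 9 distinct reads, with an offset of 64.8 bp. It was above its flanks in 4 of 5 replicates, with 8.70% of positions shared. At chr15:3399601-3399950 there were 2, 6, 3, 8 and 5 distinct reads, an 8.75-fold excess and an offset of 85.9 bp. Over the whole megabase chromosome 15 was near the library median (log2 ratio of -0.02 ± 0.10, SE, n = 5; limma, adjusted p = 0.895), with replicate 5 highest at 0.43 and the others from -0.31 to 0.01. In the GRCm38.p6 table the first protein-coding genes of chromosome 15 from 3 Mb on are Selenop, which encodes a selenium transport protein made by the liver, Ccdc152 and Ghr, which encodes the growth hormone receptor. The regions were not placed relative to these genes, since no mm8 annotation was used here.

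Across the 1900 bins, the distinct reads of pairs of replicates had a Spearman correlation of 0.553 to 0.749 over 10 pairs, a description over bins that share their sequence. It was 0.505 to 0.705 from 20 to 21 Mb, 0.316 to 0.583 from 10 to 11 Mb and 0.293 to 0.569 from 40 to 41 Mb.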

How the data were processed

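Foxa1 ChIP-Seq was analysed in 5 liver libraries of 1 condition, numbered by their titles. The authors deposited, for each library, the position and strand of every aligned read, with copies kept and with no count, score or normalization. Reads of 36 nt had been placed on mm8 (NCBI Build 36), a build the submitters' processing notes also name, by ELAND, whose version is not given in the sources used here, and those with 1 best position had been kept.

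All counts were computed from the deposited read positions (NumPy 2.4.6, pandas 2.3.3, SciPy 1.17.1 and Matplotlib 3.10.9 in Python 3.11.15). Each strand and 5′ end counted once per replicate (distinct reads), and the 5′ end assigned a read to its 10 kb bin. Sets of bins were compared with an exact two-sided sign-flip permutation test over replicates. The log2 of distinct reads plus 0.5, less that of the library's median, was tested with limma 3.58.1 in R 4.3.3 over all autosomal bins with a read, and over all full 1 Mb windows. Regions were called in windows of 200 bp, every 50 bp, on pooled distinct reads moved 100 bp toward the fragment centre. Their background was the mean of 5 kb on each side without the central 1000 bp, or the genome mean where that was larger. The flanks of a region were 5 kb on each side, at 1 kb from it. The tests were checked on simulated counts and reads.

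The depth was 1428894 to 4600497 distinct autosomal reads per replicate, or 6 to 19 in a median bin. The items named were the 19 first megabases, the 20 fullest member bins, runs of at least 3 adjacent called bins, the longest run of bins without a read on a chromosome, and the 10 regions of smallest p among those whose density exceeded the flanks in every replicate. The chromosome 15 regions and the stretches on chromosomes 5, 9 and 11 were chosen once their values were known. The members, lists and tests were chosen with earlier results of these data known. Alternatives were other comparison bins, all reads, moved 5′ ends, 1 added read, the library mean, a 1% false discovery rate, no filter on low values, other local backgrounds, support in at least 3 replicates, replicates 3 and 4 as 1 unit, and each replicate left out. No mm8 genome or annotation was used here, so no sequence is shown, and gene names came from the order of genes in a RefSeq table of GRCm38.p6.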

Additional observations from a re-analysis of the deposited data

Results flagged for a closer look

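In 47 groups of 5 replicate values, the highest or lowest library was compared with its nearest neighbour (Dixon's test), and 2 groups had a library that stood apart. Chance flags about 1 in 20 groups, so about 2.35 of 47 would be flagged by chance. The difference in the percent of empty bins between the first megabase and 20 to 21 Mb was -1.63 percentage points in replicate 5, where the other replicates lay between -5.95 and -5.00. Replicate 5 had the fewest distinct reads, and its member bins without a distinct read made up 12.5%, against 4.16% to 5.37% in the others. The part of depth in this difference was not tested.

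The first megabase of chromosome 18 had a log2 ratio of -0.33 to the library's median 1 Mb window in replicate 5, where the other replicates lay between -0.15 and -0.10. Over all 5 libraries it did not pass (limma, adjusted p = 0.0738).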

How the results depend on the processing

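Of the 132 alternative values computed, 5 means changed direction. A further 6 moved, which means by at least 1 SD between replicates for the sets without named chromosomes, which were not tested, or by over 1.5 times for a count. For the tested values only the direction and the side of p = 0.05 in the exact sign-flip permutation test were compared, and that test could not pass in any setting. Some of them therefore differed in size by over 1.5 times without a change in direction. The log2 ratio for distinct reads was 0.18 against 10 to 11 Mb and 0.20 against 40 to 41 Mb in place of 0.34, and that for the median bin -0.22 and -0.21 in place of -0.13. With all reads the fullest bins differed by 41.1 in place of 22.0 percentage points, and the first and last 100 kb by a log2 ratio of 2.83 in place of 1.75. The result on empty bins turned to 4.37 percentage points against 10 to 11 Mb and 3.32 against 40 to 41 Mb, and the strand-offset pairs turned to a log2 ratio of 0.14 without bins over 5 times the library median. The cause was not tested. Counted with all reads in place of distinct reads, 4140 regions were called in the first megabase in place of 132, where copies of 1 fragment count as separate reads. The number over the genome in that setting is not given here, so the 4140 cannot be read as a trait of the first megabase.

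Alternatives without named chromosomes were added after the data were seen. Without chromosomes 5, 9 and 11, the log2 ratio was 0.036 for distinct reads and 0.090 for all reads, the difference in distinct share was -2.98 percentage points, and the log2 ratio of the first to the last 100 kb was -0.45. Without chromosomes 7, 8 and 12 the log2 ratio for distinct reads was 0.207, and without chromosomes 7, 8, 12 and 14 the empty bins differed by 0.787 ± 2.03 percentage points (SD, n = 5), above 0 in 2 of 5 libraries. Without the first 100 kb of chromosomes 5, 9 and 11, 78 regions remained of the 132.

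With each replicate left out in turn, the log2 ratio was 0.31 to 0.36 for distinct reads, 0.72 to 0.88 for all reads, -0.17 to -0.09 for the median bin, -0.67 to -0.10 for the strand-offset pairs (-0.10 without replicate 5) and 1.73 to 1.79 for the first against the last 100 kb. The difference was -5.45 to -4.37 percentage points for empty bins, -25.4 to -17.9 for the distinct share and 21.6 to 22.6 for the fullest bins. Bins called higher numbered 24 to 31 and lower 361 to 483, windows of 1 Mb called higher 3 and lower 5 to 7, and regions 101 to 133. An exact sign-flip permutation test on 4 replicates cannot go below p = 0.125. All set comparisons were made within each library, and with 1 condition there was no second group whose replicates could be paired.

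Replicate number and depth limit these results. The exact tests could not pass 0.05 with 5 libraries, and replicate 5 had a median of 4 distinct reads in a member bin. Leaving it out gave 483 lower bins in place of 462, where leaving out any other replicate gave 361 to 385. Higher bins were 29 without it in place of 31, and 24 to 31 without another replicate. No input library was analysed here, so an excess of reads in a bin or region is not by itself a measure of Foxa1 binding. The builds of the reads and of the gene table differ, so no bin was assigned to a gene.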

Other observations

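Called regions with at most 5% of positions shared numbered 56 on 15 chromosomes, chromosomes 18 and 19 among them. The 2 such regions of chromosome 19 with the smallest p, at chr19:3320151-3320450 and chr19:3674651-3674850, held 1, 5, 3, 2 and 6 and 2, 3, 3, 1 and 5 distinct reads in replicates 1 to 5. Both were above their flanks in all 5 replicates, with offsets of 83.9 and 84.0 bp. Another such region of chromosome 19, chr19:3610101-3610300, had an offset of 22.9 bp. The first protein-coding genes of that chromosome from 3 Mb on in the GRCm38.p6 table are Ighmbp2, Mrpl21 and Cpt1a, which encodes the liver form of carnitine palmitoyltransferase 1, an enzyme of fatty acid oxidation. At chr18:3839651-3840150 there were 7, 11, 5, 8 and 1 distinct reads, a 9.88-fold excess and an offset of 121 bp. Other regions of chromosome 18 under the same limit had offsets from 1.13 to 74.6 bp. The first protein-coding genes of chromosome 18 in that table are Vmn1r238, Crem and Cul2. Whether these regions lie near the named genes was not tested.

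At chr13:3612101-3612650 the replicates 1 to 5 held 2, 0, 2, 24 and 6 distinct reads, and the region was above its flanks in 4 of 5 replicates. These regions were chosen once their values were known.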
